A study of Mus musculus with 11 samples.

Results

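The T cell receptor signalling components were taken as a list of 38 genes that code for the receptor's CD3 and zeta chains, its coreceptor, the kinases, adaptors and effectors behind them, and the proteins that restrain them. Every probe set annotated with a listed symbol and no other was used, which gave 80 probe sets of 37 genes among the 45037 probe sets tested. Lck, on the list as the kinase that starts the signal, was not analysed here. Of the 37 genes, 23 had several probe sets, and these shared their gene as a target.

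Messenger RNA was measured on Affymetrix arrays in 4 populations of CD4 T cells isolated from BALB/cA mice (spleen and lymph nodes). The starting cells were naive, without CD25 and with high CD45RB. All populations, the control included, were stimulated with anti-CD3e at 0.5 µg/ml, IL-2 at 10 ng/ml and T cell-depleted spleen cells irradiated with 20 Gy. Retrovirus was added by spinning after 24 h, and the GFP-high fraction was collected by sorting on day 7. Mock cells received the empty vector MIGR1 (3 arrays), and the others received MIGR1 with mouse WT FoxP3 (3 arrays), A384T FoxP3 (3 arrays) or R397W FoxP3 (2 arrays). FoxP3, a forkhead factor, directs the regulatory T cell programme, and both substitutions lie in its DNA-binding forkhead domain and are known from IPEX, an inherited autoimmune disease. The groups are a model of FoxP3 expressed from a retroviral vector in activated conventional T cells, not of regulatory T cells that arose in the thymus. Whether the arrays of 1 group stand for different cultures or mice is not said in the labels, and p-values here cover array-to-array spread only, which may be technical. All comparisons with mock share the 3 mock arrays.

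The T cell receptor itself has no enzyme activity. When it binds antigen, or when antibody crosslinks CD3, the kinase Lck phosphorylates motifs in the CD3 and zeta chains, and Zap70 docks there and phosphorylates the adaptors Lat and Lcp2 (SLP-76). These assemble Plcg1, Vav1 and the exchange factors for Ras, from which calcium, Ras and, through Prkcq, Bcl10 and Malt1, NF-kappaB signals run. The phosphatases Ptpn22 and Ptpn6, the ubiquitin ligases Cbl and Cblb, the diacylglycerol kinases and the surface receptor Cd5 restrain the signal. Regulatory T cells are known for a damped response through this pathway, and FoxP3 is known to bind and repress several of its genes, Ptpn22 among them.

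Promoters are printed for Themis and Ptpn22, which carried the largest changes, and for the called kinases Zap70 and Txk. They were searched for the forkhead core, the short sequence that FoxP3 and its relatives recognise. Each run is the 250 bases before the most upstream start listed for the gene, 5′ to 3′ on the gene's strand, from RefSeq (GRCm38.p6, the C57BL/6J reference, so BALB/cA may differ). Capitals mark TGTTT or its reverse complement AAACA.
Themis, chr10:28668110-28668359, plus strand: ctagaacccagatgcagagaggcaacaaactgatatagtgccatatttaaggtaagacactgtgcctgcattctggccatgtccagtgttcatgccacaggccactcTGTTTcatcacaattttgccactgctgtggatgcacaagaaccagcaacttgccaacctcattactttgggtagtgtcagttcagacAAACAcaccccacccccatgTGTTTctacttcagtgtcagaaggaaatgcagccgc
Ptpn22, chr3:103859545-103859794, plus strand: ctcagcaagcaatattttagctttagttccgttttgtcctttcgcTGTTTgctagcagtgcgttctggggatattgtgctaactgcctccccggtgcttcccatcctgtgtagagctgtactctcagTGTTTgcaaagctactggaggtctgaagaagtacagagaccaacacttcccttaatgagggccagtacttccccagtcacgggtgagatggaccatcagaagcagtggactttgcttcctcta
Zap70, chr1:36761548-36761797, plus strand: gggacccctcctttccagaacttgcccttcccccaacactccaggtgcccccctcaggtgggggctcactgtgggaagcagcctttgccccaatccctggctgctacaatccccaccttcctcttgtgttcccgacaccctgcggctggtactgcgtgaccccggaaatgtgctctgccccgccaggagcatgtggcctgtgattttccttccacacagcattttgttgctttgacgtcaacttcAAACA
Txk, chr5:72752778-72753027, minus strand: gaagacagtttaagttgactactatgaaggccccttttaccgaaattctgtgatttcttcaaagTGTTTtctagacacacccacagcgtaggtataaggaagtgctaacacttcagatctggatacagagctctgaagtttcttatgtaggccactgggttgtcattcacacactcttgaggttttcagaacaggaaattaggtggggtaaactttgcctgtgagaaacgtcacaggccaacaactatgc
Themis held 3 matches, which began at -143, -56 and -36 from the start, Ptpn22 held 2 at -205 and -123, Zap70 held 1 at -5 and Txk held 1 at -186. Matches of this kind were common: 46.4% of 32851 promoter entries of the same length held at least 1 on either strand, and so did 44.7% of the 47 entries found for 32 of the member genes (21 of 47). The longer TGTTTAC, or GTAAACA, which contains the core, stood in 3.17% of all entries and 2.13% of the member entries (1 of 47). TGTGGT or ACCACA, a core bound by RUNX factors, stood in 14% of all and 12.8% of the member entries (6 of 47). These are matches of letters, not measured binding.

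Values were log2 differences, each taken from its probe set's own mock median (3 arrays), so differences between groups could be read but levels could not, and probe sets could not be ranked by abundance. Array medians over the whole table ran from -0.016 to 0.0022, and the number of arrays limits the precision. Foxp3, the gene transduced, gave 0.037 ± 0.15 (SE) for WT over mock (limma adjusted p = 0.976), 0.27 for A384T over mock (0.579) and -0.27 for R397W over mock (1). Whether its probes match the transduced insert is not known here, so the labels could not be checked with it. Arrays that carried the same number deviated together from their group means, though beyond array 1 this does not show that the numbers pair the arrays. A fit with that number as a block is given where it changes a call. Medians of 26 glycolysis probe sets were -0.83, 0.34 and 0 on mock 1 to 3, -1.17, -0.77 and -0.48 on WT 1 to 3, -1.06, -0.83 and -0.57 on A384T 1 to 3, and -0.86 and 0.19 on R397W 1 and 2. They were thus low on array 1 of every group and also low on the other WT and A384T arrays, with a median difference from mock of -0.63 (WT) and -0.66 (A384T). Of 10 glycolysis genes, 0 were called against mock without the block, and 5 were lower for each of WT and A384T with it. In probe sets, 11 (WT) and 10 (A384T) of 26 were lower with the block, beside 3.65% and 3.43% of all. Medians of 32 cell cycle probe sets were 0.92, 0.22 and 0.14 on WT 1 to 3, 0.64, 0.37 and 0.084 on A384T 1 to 3, and between 0 and 0.099 on the mock and R397W arrays. Of 14 cell cycle genes, Mcm5 rose in WT over mock (1.95 and 1.77 at its called probe sets) and in A384T over mock (1.60), and with the block 8 were higher for WT and 5 for A384T. In probe sets, 11 (WT) and 8 (A384T) of 32 were higher with the block, beside 3.98% and 3.9% of all. Without it 2 and 1 were higher, beside 1.49% and 1.25%. Each array measured RNA of a whole sorted population, so fewer cells that use a gene and less RNA per cell cannot be told apart. Of 5 T cell marker genes, Cd2 rose in WT over mock (0.62) and in A384T over mock (0.61), and Cd28 fell in A384T over mock (-0.96). With the block Bcl11b was also higher in A384T over mock (0.64). Array medians of their 10 probe sets ran from -0.40 (R397W 1) to 0.44 (A384T 2). Their median difference from mock was -0.065 (WT) and 0.27 (A384T). Without the block, markers of B cells gave no call in any of the 6 contrasts (0 of 7 genes), and array medians of their 14 probe sets ran from -0.12 to 0. Markers of erythroid cells and platelets gave none either (0 of 4 genes, array medians from -0.24 to 0.15), but with the block Itga2b was lower for WT (-0.51, adjusted p = 0.0261) and A384T (-0.57, 0.0154) over mock. Of 7 macrophage and dendritic cell genes, Adgre1 fell in A384T over mock (-1.13) and the array medians ran from -0.044 to 0.072. Of 6 CD8, NK and gamma-delta T cell genes, Klrd1 fell in WT over mock (-3.28) and A384T over mock (-3.19), and the array medians ran from -0.037 to 0.053. The part of these cells, of the cell cycle and of glycolysis in the results below was not tested. The cell type label could not be checked by level because levels were lost in the deposited values.

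With WT FoxP3, 5 of the 37 genes fell and 0 rose at a limma adjusted p under 0.05: the thymocyte scaffold protein Themis, the phosphatase Ptpn22, the kinase Zap70, the phospholipase Plcg1 and the surface inhibitor Cd5. In probe sets that was 6 of 80 lower and 0 higher, beside 1.17% lower and 1.49% higher over all probe sets tested. With A384T FoxP3, Themis and Ptpn22 fell and the kinase Txk rose, which was 3 of 80 probe sets lower and 1 higher, beside 0.917% and 1.25% of all. With R397W FoxP3, 0 of 80 member probe sets passed the test against mock, and no probe set of the whole array was called in that contrast (0%). At an unadjusted p under 0.05 that contrast held 0 of 80 member probe sets and 829 of all 45037 (1.84%). In the fit blocked by array number the call counts were 16 lower and 8 higher of 80 for WT (3.65% and 3.98% of all) and to 12 lower and 10 higher for A384T (3.43% and 3.9% of all), and 0 for R397W (0% of all).

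**Figure D1:**
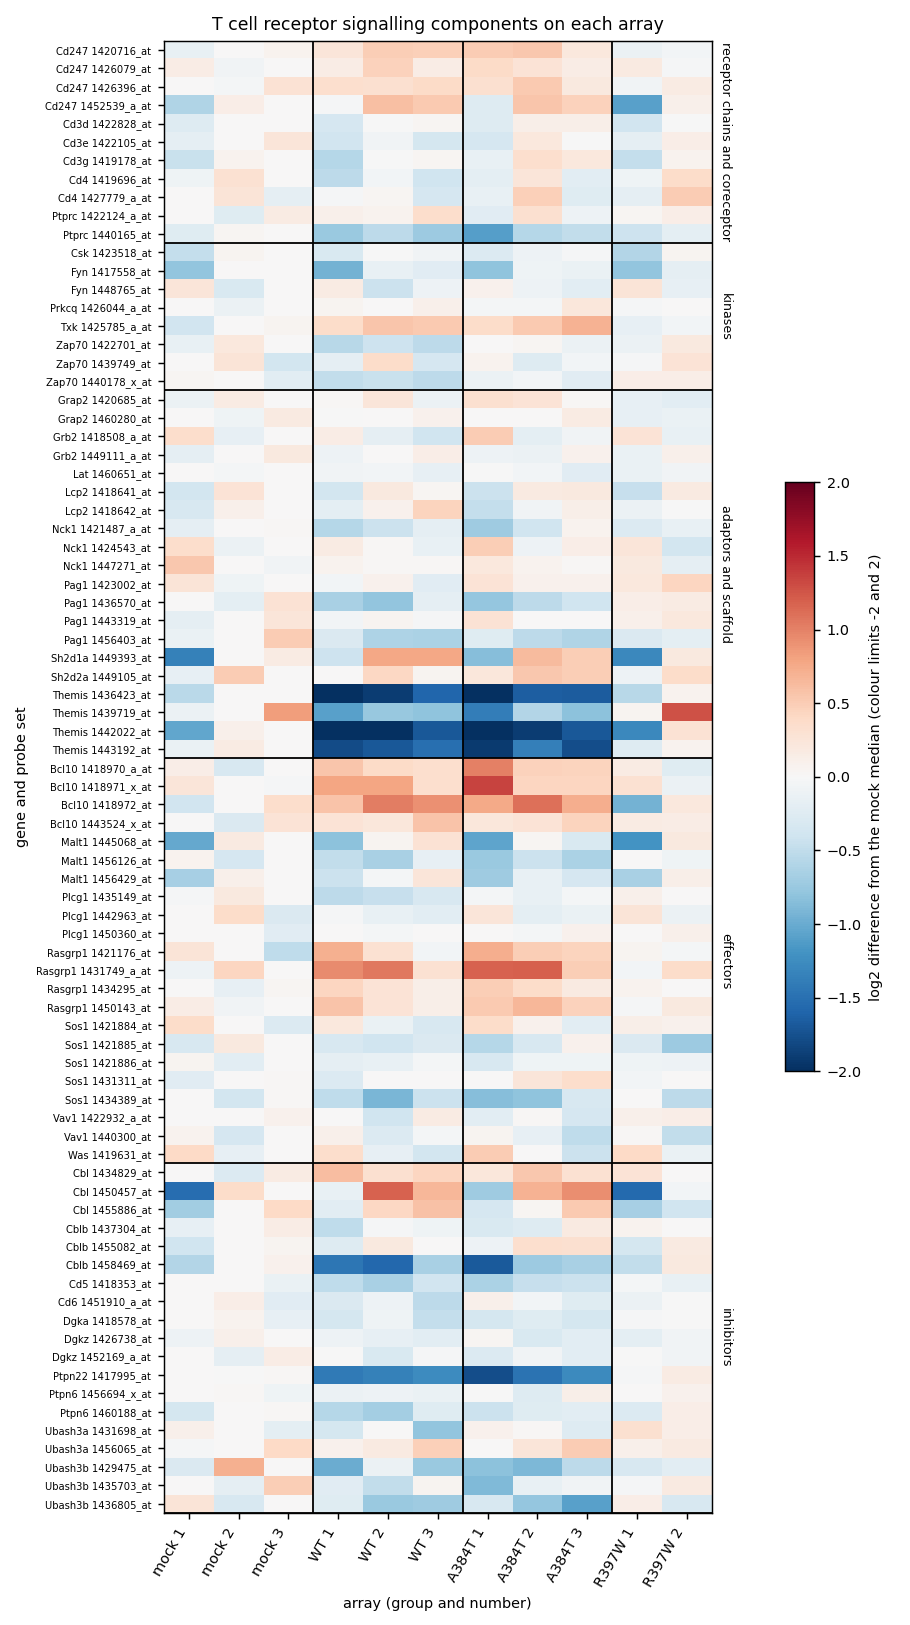
Log2 difference from the mock median of each of the 80 member probe sets (rows, grouped by role) on each of the 11 arrays (columns, grouped by construct), by colour. The Themis and Ptpn22 rows stand low on all WT and A384T arrays and near 0 or mixed on the R397W arrays.

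The median of the list lay slightly lower with WT FoxP3, though not in every role. The median difference of the 80 member probe sets was -0.091 for WT over mock (all probe sets: -0.013), -0.042 for A384T over mock (all: -0.0067) and 0.0026 for R397W over mock (all: 0.0038). Of the 80 probe sets, 50 were below 0 and 30 above 0 in WT over mock. The inhibitors lay lowest among the 5 roles, with medians of -0.27 (WT) and -0.16 (A384T) over 19 probe sets, 14 of which were below 0 in each. For WT the other medians were -0.10 (adaptors and scaffold), -0.056 (kinases), -0.020 (receptor chains and coreceptor) and 0.036 (effectors). No test was made of these medians or sign counts. The share of all probe sets below 0 was not counted, and probe sets of the same gene were counted separately. Among the 23 genes with several probe sets, the signs of their differences disagreed at 9 genes for WT, 9 for A384T and 12 for R397W, each against mock.

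**Figure D2:**
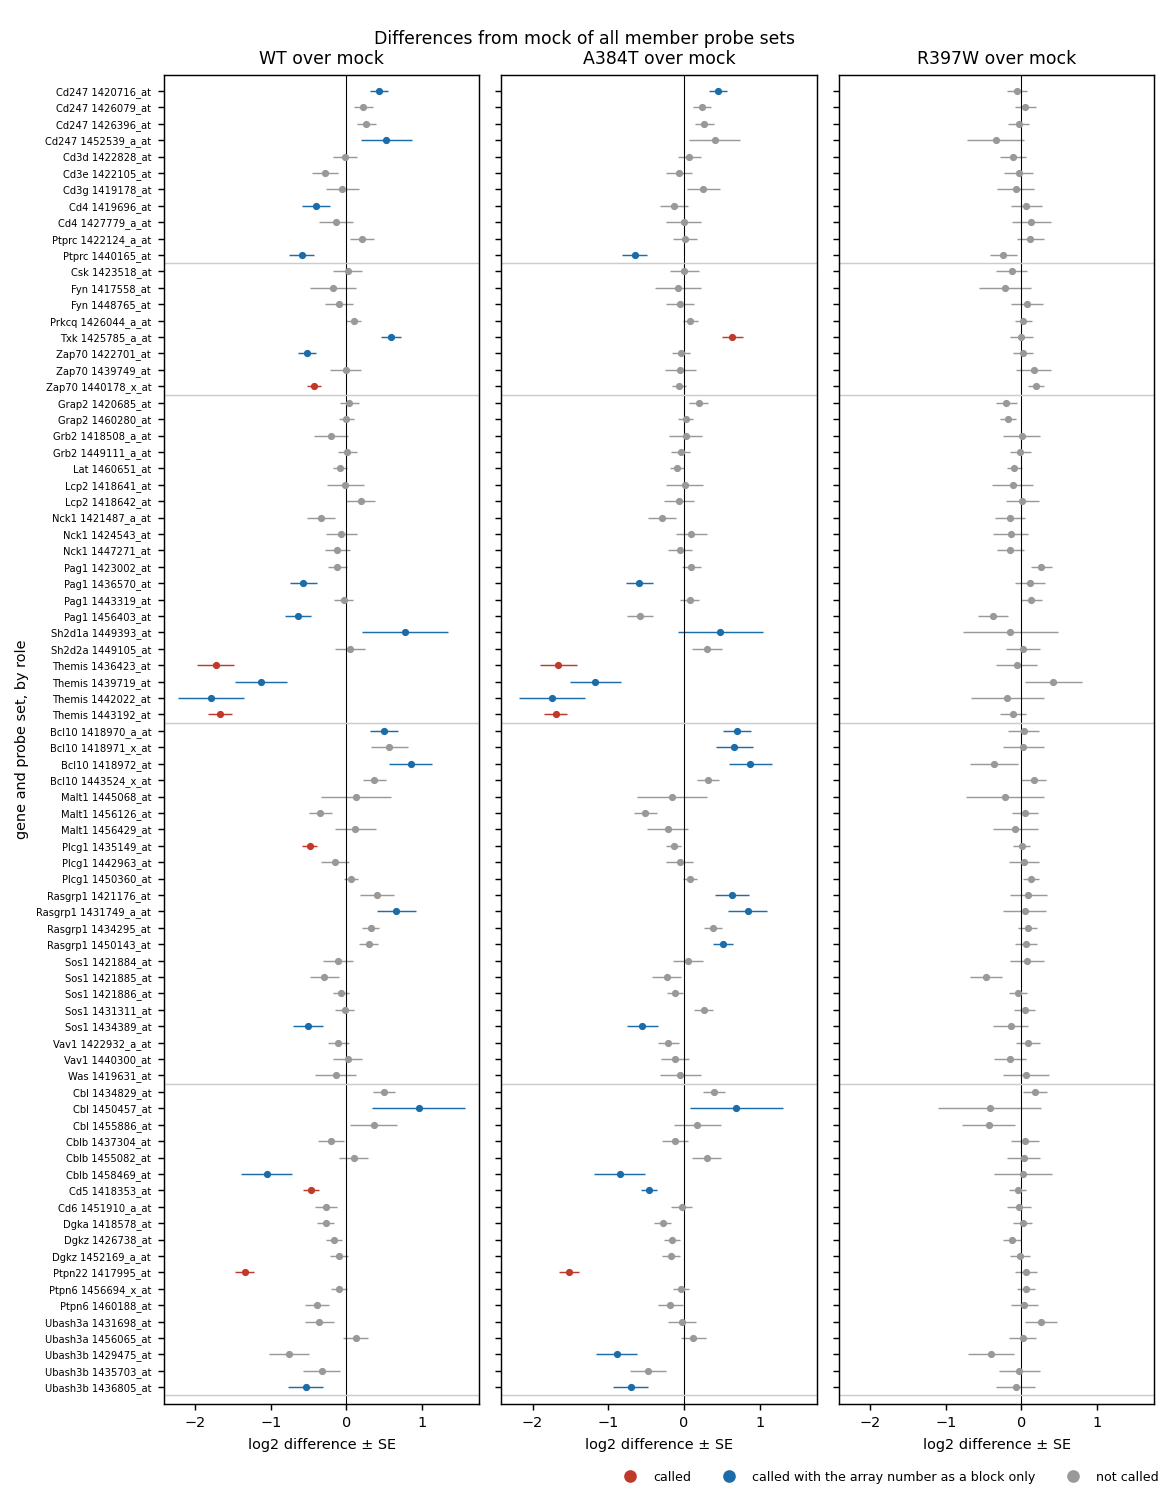
Difference in log2 value of each member probe set (rows, grouped by role) for WT, A384T and R397W over mock, with bars of 1 standard error from limma, and colour for called, called only with the array number as a block, or not called. Themis and Ptpn22 lie far to the left for WT and A384T (between -1.13 and -1.79), and no R397W point is called.

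Themis, a scaffold needed in thymic selection that sets how strongly the receptor's kinases and phosphatases act, gave the largest falls of the list. Themis (1443192_at) read -0.13, 0.16 and 0 on the mock arrays, -1.79, -1.69 and -1.51 with WT, -1.91, -1.37 and -1.78 with A384T and -0.26 and 0.063 with R397W. All WT and A384T arrays lay below all mock and R397W arrays. The WT difference from mock was -1.67 ± 0.16 (3.18-fold lower, adjusted p = 0.000428) and A384T over mock was -1.70 ± 0.16 (adjusted p = 0.000439). Themis (1436423_at) read -0.54, 0.0007 and 0 on the mock arrays, -2.25, -1.90 and -1.59 with WT, -2.20, -1.65 and -1.67 with A384T and -0.55 and 0.069 with R397W. Here too the WT and A384T arrays lay below all others, with differences of -1.73 ± 0.24 (adjusted p = 0.00388) and -1.66 ± 0.24 (adjusted p = 0.00569).

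The remaining Themis probe sets moved the same way without passing the test. Themis (1442022_at) read -1.05, 0.097 and 0 on the mock arrays, -2.50, -2.10 and -1.70 with WT, -2.58, -1.90 and -1.69 with A384T and -1.30 and 0.29 with R397W. Its WT over mock difference was -1.79 ± 0.44 (adjusted p = 0.0679, or 0.000179 with the array number as a block), and mock 1 lay apart from the other mock arrays. Themis (1439719_at) read -0.11, 0 and 0.84 on the mock arrays, -1.09, -0.76 and -0.81 with WT, -1.38, -0.59 and -0.81 with A384T and 0.059 and 1.27 with R397W. For it the difference was -1.13 ± 0.34 (adjusted p = 0.154, 0.00843 blocked). For A384T over mock these probe sets gave -1.74 ± 0.44 (adjusted p = 0.0845, 0.000236 blocked) and -1.17 ± 0.34 (adjusted p = 0.141, 0.0074 blocked). All 4 probe sets of the gene were thus lower with WT and with A384T, while R397W over mock was -0.11, -0.06, -0.18 and 0.42 in the same order, each with an adjusted p of 1.

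Ptpn22 is the phosphatase, also known as PEP, that removes activating phosphates from Lck and Zap70. Ptpn22 (1417995_at) read 0, -0.0057 and 0.029 on the mock arrays, -1.41, -1.35 and -1.25 with WT, -1.78, -1.48 and -1.28 with A384T and -0.029 and 0.17 with R397W. The 6 WT and A384T arrays lay at -1.25 or lower, and all 5 other arrays lay between -0.029 and 0.17. WT over mock was -1.35 ± 0.13 (2.54-fold lower, adjusted p = 0.000417), A384T over mock was -1.52 ± 0.13 (2.87-fold lower, adjusted p = 0.000237), and R397W over mock was 0.06 ± 0.14 (adjusted p = 1).

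**Figure D3:**
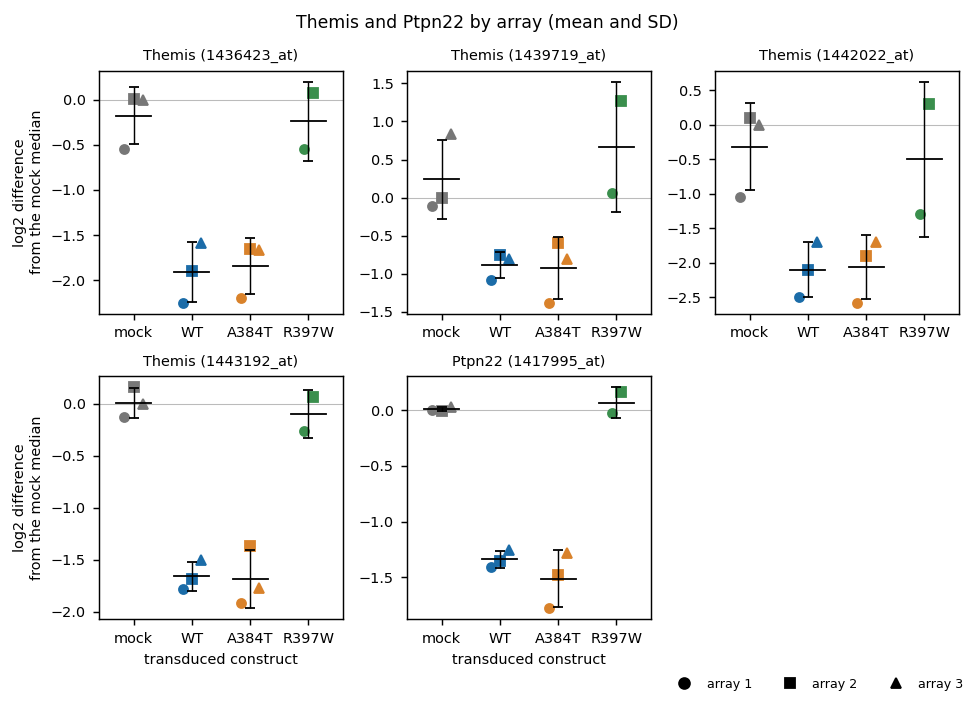
Log2 difference from the mock median (vertical axis) on each array, by construct, for the 4 Themis probe sets and Ptpn22, with the array number as the marker shape, a line at the mean and bars of 1 SD. For Ptpn22 and Themis 1443192_at the WT and A384T arrays lie below -1.2 and the mock and R397W arrays between -0.26 and 0.17.

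Among the kinases, Zap70, which carries the signal from the receptor chains to the adaptors, fell with WT FoxP3. Zap70 (1440178_x_at) read 0.032, 0 and -0.22 on the mock arrays, -0.50, -0.45 and -0.52 with WT, -0.12, -0.048 and -0.23 with A384T and 0.13 and 0.14 with R397W. The WT arrays lay below all others. With WT, the difference from mock was -0.43 ± 0.095 (adjusted p = 0.045), against -0.068 ± 0.095 for A384T over mock (adjusted p = 0.888). Zap70 (1422701_at) read -0.15, 0.21 and 0 on the mock arrays, -0.55, -0.42 and -0.52 with WT, 0.013, 0.04 and -0.11 with A384T and -0.12 and 0.20 with R397W. Here too the WT arrays lay lowest, with WT over mock at -0.52 ± 0.12 (adjusted p = 0.0557, 0.00873 blocked). Zap70 (1439749_at) read 0, 0.25 and -0.36 on the mock arrays, -0.19, 0.37 and -0.33 with WT, 0.071, -0.26 and -0.06 with A384T and -0.021 and 0.27 with R397W. At this one the groups overlapped and WT over mock was -0.012 ± 0.21 (adjusted p = 0.995). Leaving out any 1 array except mock 3 ended the Zap70 call, with adjusted p up to 0.155.

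Txk, a Tec-family kinase of resting T cells that acts on phospholipase C, moved the other way. Txk (1425785_a_at) read -0.39, 0 and 0.056 on the mock arrays, 0.37, 0.55 and 0.52 with WT, 0.36, 0.52 and 0.70 with A384T and -0.16 and -0.061 with R397W. All WT and A384T arrays lay above all mock and R397W arrays. A384T over mock was 0.64 ± 0.14 (adjusted p = 0.0416), and WT over mock was 0.59 ± 0.14 (adjusted p = 0.053, 0.00412 blocked). The A384T call ended when any 1 of the 11 arrays was left out, with adjusted p up to 0.124. Prkcq (1426044_a_at) read 0, -0.12 and 0.0097 on the mock arrays, 0.056, 0.011 and 0.11 with WT, -0.041, -0.041 and 0.23 with A384T and -0.028 and 0.0097 with R397W. For Prkcq, the protein kinase C isoform that links the receptor to NF-kappaB, WT over mock was 0.094 ± 0.098 (adjusted p = 0.863), the WT arrays lay just above the mock arrays, and A384T and R397W overlapped with mock. Fyn, the Src-family kinase that assists Lck, and Csk, which switches Src-family kinases off, gave no call in any contrast, blocked or not. Their 3 probe sets lay between -0.18 and 0.015 for WT over mock.

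Of the receptor chains and coreceptor, none was called against mock, in WT, A384T or R397W. Cd3e (1422105_at) read -0.19, 0 and 0.24 on the mock arrays, -0.38, -0.069 and -0.35 with WT, -0.34, 0.22 and -0.011 with A384T and -0.18 and 0.14 with R397W. Cd3e, the chain bound by the stimulating antibody, gave -0.29 ± 0.17 for WT over mock (adjusted p = 0.644) and -0.064 ± 0.17 for A384T (adjusted p = 0.952). The zeta chain Cd247 holds most of the phosphorylation motifs of the receptor. It lay above 0 at all 4 of its probe sets in WT over mock and A384T over mock. Against mock it passed only in the blocked fit, at 2 probe sets for WT and at 1 for A384T. Cd247 (1420716_at) read -0.15, 0 and 0.067 on the mock arrays, 0.24, 0.49 and 0.48 with WT, 0.50, 0.54 and 0.22 with A384T and -0.11 and -0.051 with R397W. Against mock, WT gave 0.43 ± 0.12 (adjusted p = 0.112, 0.0487 blocked) and A384T was 0.45 ± 0.12 (adjusted p = 0.105, 0.0431 blocked). Cd247 (1452539_a_at) read -0.60, 0.13 and 0 on the mock arrays, -0.022, 0.61 and 0.53 with WT, -0.26, 0.55 and 0.46 with A384T and -1.09 and 0.099 with R397W. At this probe set array 1 was lowest in each of the 4 groups, and WT over mock was 0.53 ± 0.34 (adjusted p = 0.677, 0.0167 blocked). A384T over mock was 0.40 ± 0.34 there and did not pass in either fit (adjusted p = 0.77, 0.06 blocked).

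Cd247 (1426079_at) read 0.15, -0.078 and 0 on the mock arrays, 0.15, 0.45 and 0.14 with WT, 0.38, 0.27 and 0.14 with A384T and 0.18 and -0.029 with R397W. Cd247 (1426396_at) read 0, -0.036 and 0.29 on the mock arrays, 0.34, 0.31 and 0.39 with WT, 0.33, 0.53 and 0.20 with A384T and -0.077 and 0.17 with R397W. At these the WT over mock differences were 0.22 ± 0.12 and 0.26 ± 0.12, with adjusted p of 0.574 and 0.479. Cd4 (1419696_at) read -0.083, 0.30 and 0 on the mock arrays, -0.53, -0.051 and -0.40 with WT, -0.20, 0.25 and -0.21 with A384T and -0.087 and 0.36 with R397W. Cd4 (1427779_a_at) read 0, 0.26 and -0.17 on the mock arrays, -0.022, 0.033 and -0.34 with WT, -0.15, 0.48 and -0.24 with A384T and -0.18 and 0.50 with R397W. Cd4, the coreceptor that brings Lck to the receptor, gave -0.40 ± 0.19 for WT over mock at 1419696_at (adjusted p = 0.467, 0.0186 blocked) and -0.14 ± 0.23 at the other probe set (adjusted p = 0.932). At 1440165_at, Ptprc (CD45), the phosphatase that keeps Lck ready, was lower against mock only in the blocked fit. The differences were -0.59 ± 0.16 for WT (adjusted p = 0.107, 0.00925 blocked) and -0.65 ± 0.16 for A384T (adjusted p = 0.0794, 0.00587 blocked). The other Ptprc probe set, 1422124_a_at, lay above 0, at 0.20 ± 0.16 for WT and 0.019 ± 0.16 for A384T. It was not called against mock in either fit. Cd3d and Cd3g, the other CD3 chains, gave no call against mock in either fit.

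Among the adaptors, Lat, the membrane scaffold that Zap70 phosphorylates, and Lcp2, its cytosolic partner, were not called in any contrast, blocked or not. Lat (1460651_at) read 0, -0.038 and 0.0045 on the mock arrays, -0.071, -0.048 and -0.16 with WT, -0.015, -0.054 and -0.23 with A384T and -0.14 and -0.073 with R397W. For WT the difference was -0.083 ± 0.089 (95% interval -0.28 to 0.11, adjusted p = 0.868). Lcp2 (1418641_at) read -0.37, 0.27 and 0 on the mock arrays, -0.37, 0.19 and 0.038 with WT, -0.42, 0.17 and 0.20 with A384T and -0.46 and 0.17 with R397W. Lcp2 (1418642_at) read -0.33, 0.097 and 0 on the mock arrays, -0.19, 0.086 and 0.44 with WT, -0.47, -0.078 and 0.12 with A384T and -0.12 and -0.012 with R397W. For Lcp2 the WT over mock differences were -0.017 ± 0.24 and 0.19 ± 0.19 (adjusted p = 0.995 and 0.86).

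Sh2d1a (SAP), the adaptor of SLAM-family receptors, passed in the blocked fit alone. Sh2d1a (1449393_at) read -1.36, 0 and 0.17 on the mock arrays, -0.41, 0.77 and 0.78 with WT, -0.86, 0.63 and 0.49 with A384T and -1.28 and 0.20 with R397W. Array 1 was lowest in every group, by more than the constructs differed. WT over mock was 0.78 ± 0.56 (adjusted p = 0.743, 0.00103 blocked) and A384T over mock was 0.48 ± 0.56 (adjusted p = 0.86, 0.0175 blocked). Pag1, which anchors Csk at the membrane, was lower against mock only in the blocked fit, at 2 of its 4 probe sets. At 1436570_at the differences were -0.57 ± 0.18 for WT (0.0106 blocked) and -0.59 ± 0.18 for A384T (0.00947 blocked). At 1456403_at they were -0.64 ± 0.17 for WT (0.0496 blocked) and -0.58 ± 0.17 for A384T (0.0746 blocked, not called). The uncalled 1423002_at and 1443319_at gave -0.12 and -0.035 for WT, and 0.0975 and 0.0749 for A384T. Grb2, which recruits Sos1, Grap2 (Gads), which joins Lcp2 to Lat, Nck1 and Sh2d2a (TSAd) gave no call in any contrast. Their 8 probe sets lay between -0.34 and 0.046 for WT over mock and between -0.29 and 0.31 for A384T over mock.

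Of the effectors, Plcg1, which makes the second messengers for calcium and diacylglycerol, fell with WT FoxP3. Plcg1 (1435149_at) read -0.028, 0.19 and 0 on the mock arrays, -0.53, -0.46 and -0.32 with WT, -0.045, -0.15 and -0.039 with A384T and 0.11 and 0.0042 with R397W. The WT arrays lay below all others. The WT difference from mock was -0.49 ± 0.099 (1.4-fold lower, adjusted p = 0.029) and A384T over mock was -0.13 ± 0.099 (adjusted p = 0.727). The WT call ended without mock 1, mock 2, mock 3, WT 1 or WT 2 (adjusted p up to 0.123). Plcg1 (1442963_at) read 0, 0.37 and -0.29 on the mock arrays, -0.024, -0.15 and -0.21 with WT, 0.25, -0.20 and -0.13 with A384T and 0.25 and -0.12 with R397W. Plcg1 (1450360_at) read 0.0069, 0 and -0.22 on the mock arrays, 0, -0.045 and 0 with WT, 0, -0.045 and 0.087 with A384T and 0 and 0.11 with R397W. These probe sets did not move with the first: WT over mock was -0.15 ± 0.18 and 0.056 ± 0.093 (adjusted p = 0.89 and 0.931).

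Malt1, the protease of the complex that leads to NF-kappaB, gave no call in any contrast. Malt1 (1445068_at) read -1.02, 0.17 and 0 on the mock arrays, -0.83, 0.053 and 0.29 with WT, -1.06, 0.042 and -0.30 with A384T and -1.19 and 0.20 with R397W. Malt1 (1456126_at) read 0.066, -0.33 and 0 on the mock arrays, -0.49, -0.64 and -0.17 with WT, -0.75, -0.42 and -0.64 with A384T and 0.0002 and -0.092 with R397W. Malt1 (1456429_at) read -0.66, 0.096 and 0 on the mock arrays, -0.43, -0.04 and 0.24 with WT, -0.71, -0.15 and -0.34 with A384T and -0.66 and 0.12 with R397W. The WT over mock differences were 0.12, -0.34 and 0.11, with adjusted p from 0.431 to 0.975, and their signs differed. Bcl10, its partner, was higher only in the blocked fit. At 1418972_at it read -0.38, 0 and 0.35 on the mock arrays, 0.57, 1.03 and 0.92 with WT, 0.76, 1.11 and 0.72 with A384T and -0.95 and 0.21 with R397W. The WT and A384T arrays lay above the mock and R397W arrays, by 0.85 ± 0.28 (adjusted p = 0.216, 0.016 blocked) and 0.87 ± 0.28 (adjusted p = 0.204, 0.0147 blocked). In that fit 1418970_a_at also passed for WT (0.49) and A384T (0.70), and 1418971_x_at for A384T (0.67). Rasgrp1, the exchange factor that turns diacylglycerol into Ras activity, was higher at 3 of its 4 probe sets for A384T in that fit, by 0.64, 0.84 and 0.52, and at 1 for WT (0.66). Sos1, the other Ras exchange factor, was lower at 1 of 5 probe sets in the blocked fit, with differences of -0.51 for WT and -0.55 for A384T. Vav1, the Rac exchange factor, and Was, which drives actin growth, gave no call in any contrast, and their 3 probe sets lay between -0.14 and 0.016 for WT over mock.

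Besides Ptpn22, the inhibitors held a fall of Cd5, a surface receptor whose level is known to follow signal strength. Cd5 (1418353_at) read 0.0051, 0 and -0.13 on the mock arrays, -0.51, -0.65 and -0.38 with WT, -0.63, -0.46 and -0.42 with A384T and -0.037 and -0.15 with R397W. All WT and A384T arrays lay below all mock and R397W arrays. With WT, the difference from mock was -0.47 ± 0.10 (adjusted p = 0.0416) and A384T over mock was -0.46 ± 0.10 (adjusted p = 0.0521, 0.0266 blocked). The WT call was kept without WT 3 or without A384T 1 and ended without any other 1 of the 11 arrays (adjusted p up to 0.155).

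**Figure D4:**
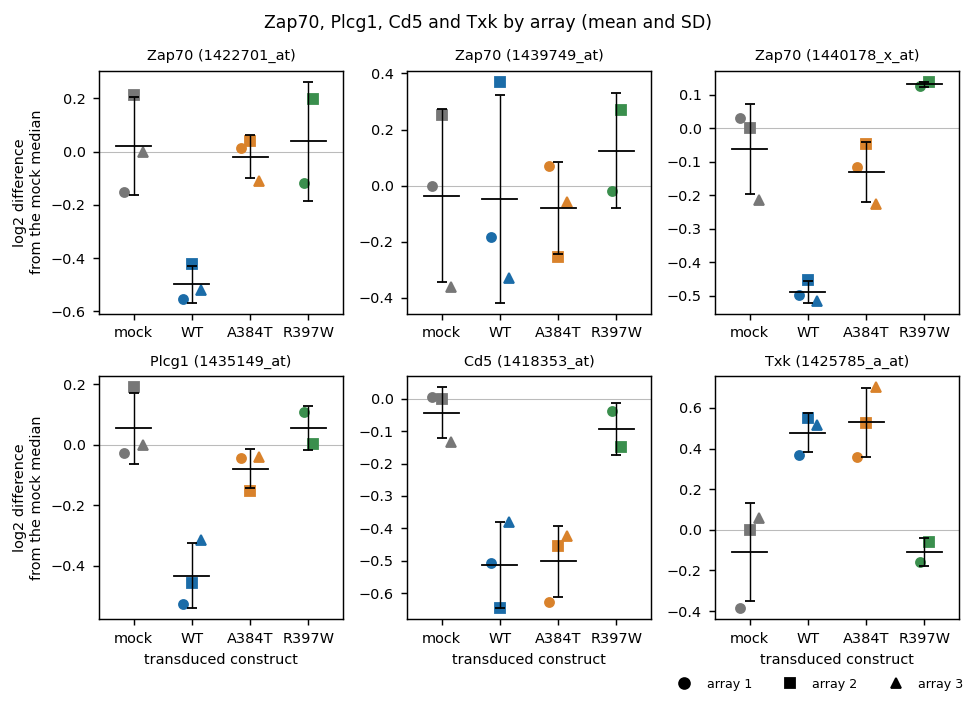
Log2 difference from the mock median (vertical axis) on each array, by construct, for 3 Zap70 probe sets, Plcg1 1435149_at, Cd5 and Txk, with the array number as marker shape, a line at the mean and bars of 1 SD. The WT arrays stand apart from A384T for Zap70 (1422701_at and 1440178_x_at) and Plcg1, and stand with A384T for Cd5 and Txk.

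Cbl and Cblb are ubiquitin ligases that mark signalling proteins for breakdown, and against mock 1 probe set of each passed in the blocked fit alone, in opposite directions. Cbl (1450457_at) read -1.52, 0.37 and 0 on the mock arrays, -0.15, 1.19 and 0.67 with WT, -0.72, 0.70 and 0.94 with A384T and -1.55 and -0.057 with R397W. Array 1 was lowest in every group, and WT over mock was 0.95 ± 0.61 (adjusted p = 0.683, 0.00447 blocked). A384T over mock was 0.69 ± 0.61 there (adjusted p = 0.791, 0.0274 blocked). Cblb (1458469_at) read -0.59, 0 and 0.08 on the mock arrays, -1.45, -1.58 and -0.65 with WT, -1.68, -0.73 and -0.65 with A384T and -0.49 and 0.19 with R397W. Against mock, WT gave -1.06 ± 0.34 (adjusted p = 0.192, 0.0045 blocked) and A384T was -0.85 ± 0.34 (adjusted p = 0.343, 0.016 blocked). The other 2 Cblb probe sets gave -0.20 and 0.093 for WT over mock and were not called. Ubash3b (Sts-1), a phosphatase that acts on Zap70, was lower in the blocked fit at 1436805_at (-0.54 for WT and -0.70 for A384T) and at 1429475_at (-0.89 for A384T). The phosphatase Ptpn6 (SHP-1), the diacylglycerol kinases Dgka and Dgkz, the surface receptor Cd6 and Ubash3a gave no call in any contrast, and their 8 probe sets lay between -0.39 and 0.12 for WT over mock.

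The mutants were then set against WT FoxP3 and against each other. For A384T over WT no member probe set passed, blocked or not (0 of 80), beside 0.102% of all probe sets (0.515% blocked). At an unadjusted p under 0.05 there were 4 of 80 members and 1845 of all (4.1%). Zap70 was higher with A384T than with WT by 0.48 ± 0.12 (95% interval 0.21 to 0.75, unadjusted p = 0.0027, adjusted p = 0.444) at 1422701_at and by 0.36 ± 0.095 (0.15 to 0.57, unadjusted p = 0.00356, adjusted p = 0.514) at 1440178_x_at. Plcg1 was higher by 0.35 ± 0.099 (0.14 to 0.57, unadjusted p = 0.0048, adjusted p = 0.589). These values did not pass, so the fall of Zap70 and Plcg1 in WT and not in A384T is not shown to differ between the constructs. For Themis the intervals of the A384T minus WT difference were -0.38 to 0.33 (1443192_at) and -0.47 to 0.61 (1436423_at), for Ptpn22 -0.45 to 0.11 and for Txk -0.25 to 0.35.

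R397W FoxP3 gave higher values than WT FoxP3 at Themis, Ptpn22 and Zap70, in 4 of 80 probe sets and none lower, beside 0.759% higher and 0.99% lower over all probe sets. Themis was higher by 1.56 ± 0.18 (adjusted p = 0.00193) and 1.67 ± 0.27 (adjusted p = 0.0126), Ptpn22 by 1.41 ± 0.14 (adjusted p = 0.000993) and Zap70 (1440178_x_at) by 0.62 ± 0.11 (adjusted p = 0.0169). The remaining Zap70 probe sets also lay above 0 in R397W over WT. Of these, 1422701_at passed only with the block and 1439749_at passed in neither fit. The Zap70 call was kept without any 1 of the mock or A384T arrays and ended without any 1 of the WT or R397W arrays (adjusted p up to 0.127), and the Themis call at 1436423_at ended without R397W 2 (0.133). R397W over A384T gave higher Themis (1.59 ± 0.18, adjusted p = 0.0018, and 1.60 ± 0.27, adjusted p = 0.0176) and Ptpn22 (1.58 ± 0.14, adjusted p = 0.00064). That was 3 of 80 higher and 0 lower, beside 0.615% and 0.853% of all. The Themis call at 1436423_at ended without A384T 1 or R397W 2 (0.168). With the block, 11 were higher and 7 lower of 80 for R397W over WT (2.71% and 3.07% of all) and 8 higher and 8 lower for R397W over A384T (2.64% and 3.07% of all). Each R397W value rests on 2 arrays, and where 1 of them was left out, the remaining array was assumed to vary like those of the other groups.

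At many members array 1 differed from the other arrays in the same direction in every group. At 35 of the 80 member probe sets array 1 was below the mean of the other arrays in each of the 4 groups. At 13 it was above in each. Neither count was made over all probe sets, so neither marks the members out. Over all 45037 probe sets, too, arrays of the same number deviated together (r between 0.107 and 0.718). Deviations from a group mean cancel out within the group, so these r values do not show pairing beyond array 1. The labels do not say what the number stands for. At all 4 Themis probe sets and at Ptpn22 every WT array lay below every mock array, so any pairing of the arrays would give the same order.

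**Figure D5:**
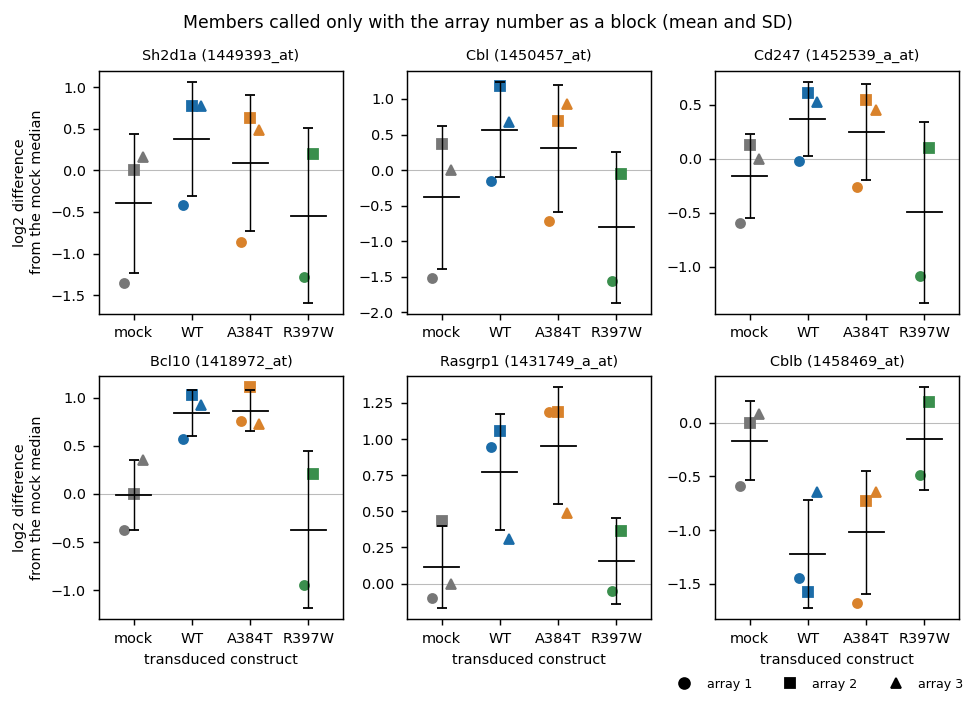
Log2 difference from the mock median (vertical axis) on each array, by construct, for 6 member probe sets that passed only with the array number as a block, with the number as marker shape, a line at the mean and bars of 1 SD. For Sh2d1a, Cbl and Cd247 the circle of array 1 is the lowest point in all 4 groups.

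Beyond the members, 60 further genes of the pathway were listed, from costimulation to calcium, Ras and NF-kappaB signalling, of which 49 were measured with 143 probe sets. Without the block, in WT over mock 3 genes rose and 0 fell: Vav2 (1.61 ± 0.27, adjusted p = 0.0101), a relative of Vav1, Traf6 (1.09 ± 0.23, 0.0357), a ubiquitin ligase behind Malt1, and the adhesion receptor Cd2 (0.62 ± 0.10, 0.00834). In A384T over mock 4 rose and 4 fell, the largest being Trat1 (TRIM), which associates with the receptor (-2.43 ± 0.41, 0.0127), Vav2 (1.35 ± 0.27, 0.0289), Traf6 (1.10 ± 0.23, 0.0393) and the costimulatory receptor Cd28 (-0.96 ± 0.16, 0.0111). R397W over mock and A384T over WT called 0 of 49 genes. In R397W over WT 0 rose and 3 fell, namely Traf6 (-1.37 ± 0.26, 0.0274), Ptpn2 (-1.03 ± 0.20, 0.0304) and Cd2 (-0.61 ± 0.11, 0.0228), and in R397W over A384T 3 rose and 3 fell. With the array number as a block, 6 genes were higher and 4 lower for WT over mock, the lower ones including Trat1 (-1.38, adjusted p = 0.0112), Tespa1 (-0.87, 0.00359) and Sla (-0.84, 0.00114). In that fit 11 were higher and 6 lower for A384T over mock, 0 for R397W over mock, 3 higher and 8 lower for R397W over WT, and 6 higher and 8 lower for R397W over A384T. A384T over WT then had 1 higher, Tespa1 (0.89, 0.0229), and 1 lower, Cd96 (-0.66, 0.0157). Without the block the counts in probe sets, of 143, were 3 higher and 0 lower for WT over mock (1.49% and 1.17% of all). A384T over mock had 4 and 5 (1.25% and 0.917%), and R397W over WT 0 and 3 (0.759% and 0.99%). R397W over A384T had 4 and 3 (0.615% and 0.853%), and A384T over WT 0 (0.102% of all in either direction). The blocked counts in probe sets, of 143, were 10 higher and 7 lower for WT over mock (3.98% and 3.65% of all). For A384T over mock they were 11 and 10 (3.9% and 3.43%), and for R397W over WT 4 and 11 (2.71% and 3.07%). R397W over A384T had 10 and 10 (2.64% and 3.07%), and A384T over WT 3 and 1 (0.515% of all in either direction). The medians over the 143 probe sets were 0.028 for WT over mock and 0.08 for A384T over mock.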

How the data were processed

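Total RNA of sorted transduced T cells was labelled with biotin and hybridised to 1 Affymetrix array per sample, 11 in all. The deposited table holds log2 values made by the authors with RMA (background correction, quantile normalization, 1 summary value per probe set), per the submitters' processing notes without a version. In the deposited table all 45101 probe sets had a mock median of exactly 0 over 3 arrays, so each had been centred there, which removes levels and leaves differences. Neither the centring nor the logarithm's base is recorded in those notes or in the labels, and base 2 was assumed.

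After 64 control probe sets were left out, 45037 were fitted with limma (3.58.1, R 4.3.3) with 1 mean per group over all 11 arrays, and 6 contrasts were tested with eBayes and Benjamini-Hochberg adjustment over all probe sets of a contrast. Called means an adjusted p under 0.05, and a gene is called through at least 1 probe set. There were 7 residual degrees of freedom, a median residual SD of 0.173 and a median standard error of 0.139 for 3 arrays against 3. Values after ± are standard errors. Because a filter on dim probe sets needs levels, a filter on the SD over arrays was an alternative instead. Counts were tabulated with pandas 2.3.3 under Python 3.11.15 and plotted with matplotlib 3.10.9, and the fit was tested on simulated data with 200 changed probe sets.

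Symbols came from the platform annotation, which lists 1 symbol for 34958 probe sets, several for 932 and none for 9211. Groups and array numbers came from the sample titles. Deviations from the group means correlated between arrays of the same number in all 15 pairs of arrays (r between 0.107 and 0.718). Such deviations cancel out within a group, so a shift shared by the arrays numbered 1 also makes the other pairs correlate. Arrays of different numbers were not compared, so pairing of the other numbers is not shown. The block assumes that the numbers pair the arrays, and the blocked fit is given where it changes a call. All 38 listed genes were accounted for by role. Values on every array are printed for each gene called in any contrast and for Cd3e, Cd247, Cd4, Zap70, Lat, Lcp2, Plcg1, Ptpn22, Prkcq and Malt1, and up to 4 called genes per contrast are named from other lists. Genes printed with array values because they passed in the blocked fit alone were chosen after their values were seen. The members and lists were chosen with earlier results of these data known.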

Additional observations from a re-analysis of the deposited data

How the results depend on the processing

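The counts of member genes called depended on the processing. Over the 480 member results (80 probe sets in 6 contrasts) set against each alternative that could be run for them, 9270 comparisons in all, 95 lost the call, 80 gained it, and no result called in either fit changed sign. Among results called in neither fit the sign changed in 571 comparisons, 25 of them with the replicate block, 17 of those in R397W over mock. In WT over mock 5 genes were called, against 3 with 1 probe set per gene (the one with the largest SD), 2 with only the compared groups in the fit, 2 with an SD filter at the median, 2 after quantile normalization, 2 with a trended and robust prior, and 17 with the replicate number as a block. In A384T over mock 3 were called, against 14 with the block. In R397W over WT 3 were called, against 1 with 1 probe set per gene, 0 with the trended and robust prior and 13 with the block. In R397W over A384T 2 were called, against 1 with 1 probe set per gene, 0 with only the compared groups, 1 with the trended and robust prior and 10 with the block. Leaving out 1 array, or all arrays of 1 number, gave 1 to 5 genes in WT over mock, 1 to 2 in A384T over mock, 0 to 3 in R397W over WT and 0 to 3 in R397W over A384T. R397W over mock and A384T over WT had 0 in every setting. Ptpn22 was called in 19 of 20 alternatives in WT over mock and in A384T over mock, and Themis (1443192_at) in 19 of 19. Plcg1 was called in 9 of 20 and Cd5 in 5 of 20 in WT over mock, Zap70 (1440178_x_at) in 3 of 19, and Txk in 3 of 20 in A384T over mock. The cause of these shifts was not tested. Signal over background cannot be read from centred values, so dim probe sets could not be set apart.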
